A study of Capra hircus with 6 samples.

Results

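Genes of the dopamine, serotonin and histamine neurons of the goat hypothalamus were followed from the prepubertal to the pubertal stage. The set held 10 genes named by their NCBI goat symbols, TH, DDC, SLC6A3, SLC18A2, DRD1, DRD2, TPH2, HDC, HTR2C and MAOA, out of 20225 genes in the mRNA table. Transcripts were found for 9 of them, and the FPKM of all transcripts of a gene were summed in each library. FPKM counts sequenced fragments per kilobase of transcript, scaled to all mapped fragments of the library. The gene table used for names has no entry under the symbol MAOA, and this gene, which encodes a monoamine oxidase, was not analysed here.

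The libraries came from hypothalamic tissue of female Anhuai goats, 3 prepubertal goats of 2.5 to 3 months and 3 pubertal goats of 4.5 to 5 months, with 1 library per goat, numbered here by replicate. All goats were kept on the same farm, and the pubertal goats were taken in the late follicular phase. Stage, age, body size and cycle phase therefore changed together and cannot be told apart. In such bulk tissue, fewer cells of a type and less RNA per cell cannot be told apart either. Read counts per gene were not used here, and the number of reads on which a gene's FPKM rests cannot be read from these values.

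Amine neurons make their transmitter from an amino acid in a short chain of steps. Tyrosine hydroxylase and tryptophan hydroxylase 2 start the synthesis of dopamine and of serotonin, the decarboxylase DDC completes both, and histidine decarboxylase makes histamine in a single step. The vesicular carrier SLC18A2 loads all these amines into vesicles, and SLC6A3 takes dopamine back from the synaptic cleft. In the hypothalamus, dopamine neurons of the arcuate nucleus restrain prolactin release, histamine neurons lie in the tuberomammillary nucleus, and serotonin arrives mainly in fibres from the raphe nuclei of the brainstem.

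The libraries were alike in scale, with a median log2(FPKM + 1) between 3.80 and 3.83 over genes with a mean of at least 1 FPKM. They differed in markers of neighbouring tissue. The summed level of 8 choroid plexus markers reached 339 FPKM in pubertal goat 3, while the other goats had from 14.2 to 66.5 FPKM, and 5 leptomeningeal markers summed to 101 to 258 FPKM in the pubertal goats and to 40.1 to 73.5 FPKM in the prepubertal goats. For 6 anterior pituitary markers the sums were 52.8 to 66.0 FPKM at the pubertal and 3.75 to 20.9 FPKM at the prepubertal stage, mostly from CGA. The stages did not overlap for 2 of these markers, CGA and TSHB, and overlapped for GH1, LHB, FSHB and POU1F1. LHB averaged 0.855 and 0.844 FPKM in pubertal and prepubertal goats. The part of anterior pituitary tissue in these levels was not tested. Of 13 hypothalamus markers 10 were in the table, and AVP was listed at 0 in all 6 libraries. Whether a listed 0, here or for the genes below, stands for absent RNA or for a gap in the quantification was not tested.

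The levels of the 9 genes covered a wide range. HDC was the most abundant, with a mean of 116 FPKM over the 6 libraries, above 95.9% of the genes in the table. DDC followed with 65.0 FPKM, TH with 44.7 FPKM and SLC18A2 with 33.2 FPKM. The receptors came next, with 11.4 FPKM for HTR2C, 3.99 FPKM for DRD1 and 2.28 FPKM for DRD2. TPH2 had 1.36 FPKM and SLC6A3 had 0.716 FPKM, above 28.3% of the genes in the table. Each gene was higher than the next in this order in 6 of 6 libraries (exact sign-flip permutation test, two-sided p = 0.03125, the smallest that 6 libraries allow, adjusted p = 0.0357 over 8 comparisons), except that TPH2 was higher than SLC6A3 in 5 of 6 (exact p = 0.0625). The order was set by the means of these same libraries, so these p-values are not separate support for it. The ranges over the 6 libraries overlapped between DDC and TH, TH and SLC18A2, DRD2 and TPH2, and TPH2 and SLC6A3. The level of TH rests on a single transcript model of 287 nt, XM_013977211.1, while the other transcripts of these genes were 1165 to 3286 nt long, so its place in the order is less sure.

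**Figure D1:**
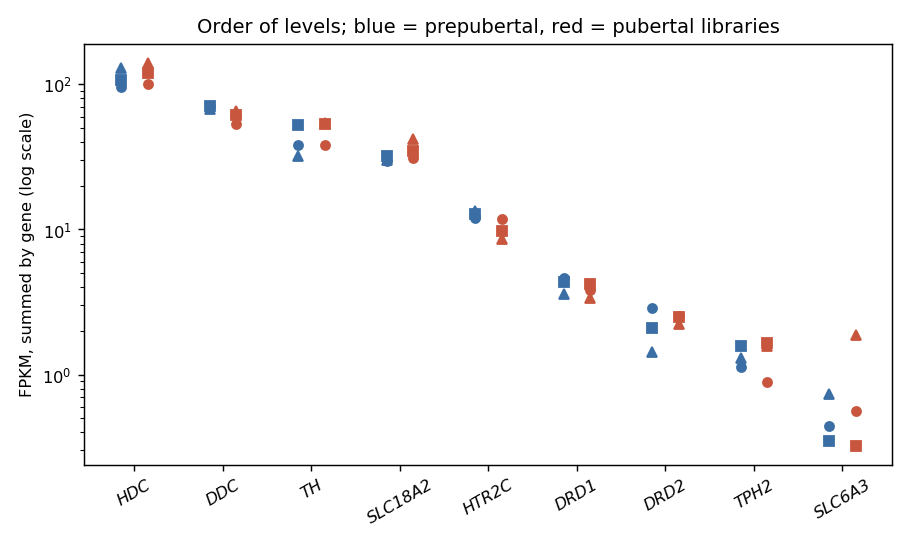
The FPKM of each of the 9 genes in the 6 libraries, summed by gene and drawn on a log scale, from the most to the least abundant (circle, square and triangle are replicates 1, 2 and 3). HDC lies above 95 FPKM in every library, and TPH2 and SLC6A3 lie under 2 FPKM.

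The stages were compared gene by gene with limma, taking log2(FPKM + 1) over 16397 genes with a mean of at least 0.1 FPKM. None of the 9 genes had an adjusted p under 0.05 (a count of 0), and 0% of all genes tested passed this threshold. At an unadjusted p under 0.05 there was 1 of the 9 genes, HTR2C, against 5.16% of all genes tested, or 846 genes. The stages did not overlap for 2 of the 9, HTR2C and DDC, against 9.75% of all genes tested. Both were lower in pubertal goats, and in this direction 1.65% of all genes had an unadjusted p under 0.05 and 3.84% did not overlap. In the 9 genes, 6 had a log2 fold change above 0 and 3 below 0, with a median of 0.10, beside a median of -0.00065 over all genes tested. With 3 libraries against 3, an exact permutation test of a single gene cannot give a p under 0.1.

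**Figure D2:**
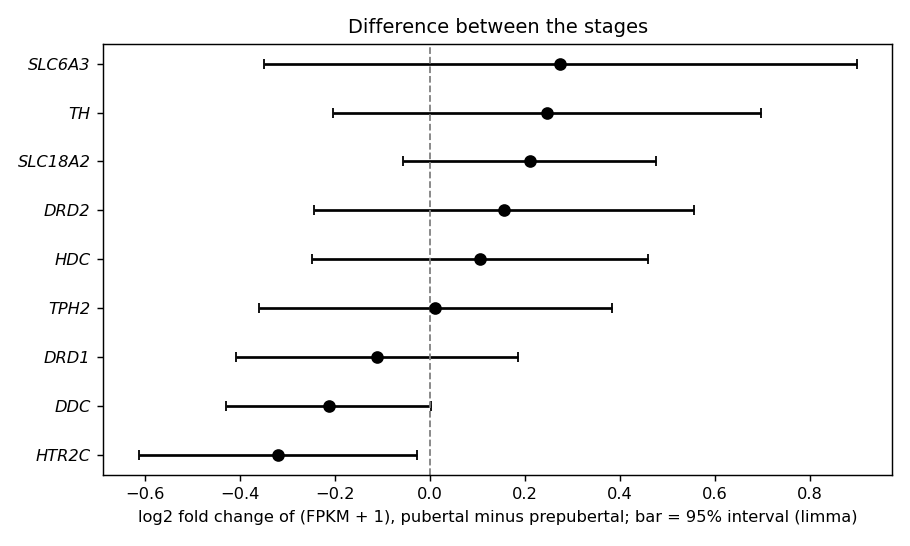
The log2 fold change of (FPKM + 1), pubertal minus prepubertal, for each of the 9 genes, with its 95% interval from limma (3 libraries per stage). The interval of HTR2C, from -0.61 to -0.03, leaves out 0, and that of DDC, from -0.43 to 0.00, just reaches it.

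TH, the first enzyme of dopamine synthesis, measured 38.0, 53.4 and 53.9 FPKM in pubertal goats 1, 2 and 3, against 38.4, 52.3 and 32.1 FPKM in prepubertal goats 1, 2 and 3. High and low goats were found at both stages, and the stages overlapped. All TH levels rest on the single transcript model of 287 nt, so the comparison of the stages is also less sure. The pubertal mean was 48.4 ± 9.04 FPKM and the prepubertal mean 41.0 ± 10.3 FPKM (SD, n = 3 each). In limma the log2 fold change of TH was 0.25 (standard error 0.20, adjusted p = 0.962) and had a 95% interval from -0.21 to 0.70. Single goats moved this value, which was 0.09 without prepubertal goat 3, 0.16 without pubertal goat 3, 0.41 without pubertal goat 1 and 0.43 without prepubertal goat 2 (unadjusted p = 0.0418 in the last).

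DDC, which turns L-DOPA into dopamine and 5-hydroxytryptophan into serotonin, measured 53.7, 61.7 and 65.3 FPKM in pubertal goats 1, 2 and 3, against 70.9, 70.8 and 67.7 FPKM in prepubertal goats 1, 2 and 3. All pubertal libraries lay below all prepubertal ones, and the nearest were those of goats numbered 3 at each stage. The mean was lower by 13.7% in pubertal goats, at 60.2 ± 5.97 FPKM where the prepubertal mean was 69.8 ± 1.86 FPKM (SD, n = 3 each). For DDC limma gave a log2 fold change of -0.21 (standard error 0.09, unadjusted p = 0.0522, adjusted p = 0.962), and the exact permutation p was 0.1. Without pubertal goat 1 it was -0.13, and without pubertal goat 3 it was -0.27 (unadjusted p = 0.0296). Among its 4 transcripts, XM_005678876.2 held between 95.3% and 99.6% of the FPKM in each library.

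The vesicular carrier SLC18A2 measured 31.2, 34.5 and 41.8 FPKM in pubertal goats 1, 2 and 3, against 29.6, 32.1 and 30.2 FPKM in prepubertal goats 1, 2 and 3. Pubertal goat 3 was the highest library, and pubertal goat 1 lay within the prepubertal range. limma put the log2 fold change at 0.21 (standard error 0.12, adjusted p = 0.962). Without pubertal goat 3 this was 0.10, and without pubertal goat 1 it was 0.30 (unadjusted p = 0.0225). SLC6A3, the dopamine transporter of the plasma membrane, measured 0.563, 0.324 and 1.88 FPKM in pubertal goats 1, 2 and 3, against 0.445, 0.351 and 0.729 FPKM in prepubertal goats 1, 2 and 3. Only pubertal goat 3 stood above 1 FPKM, the library that also held the most choroid plexus and leptomeningeal markers, whose part in this level was not tested. In limma the log2 fold change of SLC6A3 was 0.27 (standard error 0.27, adjusted p = 0.962), and without this library it was -0.06.

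**Figure D3:**
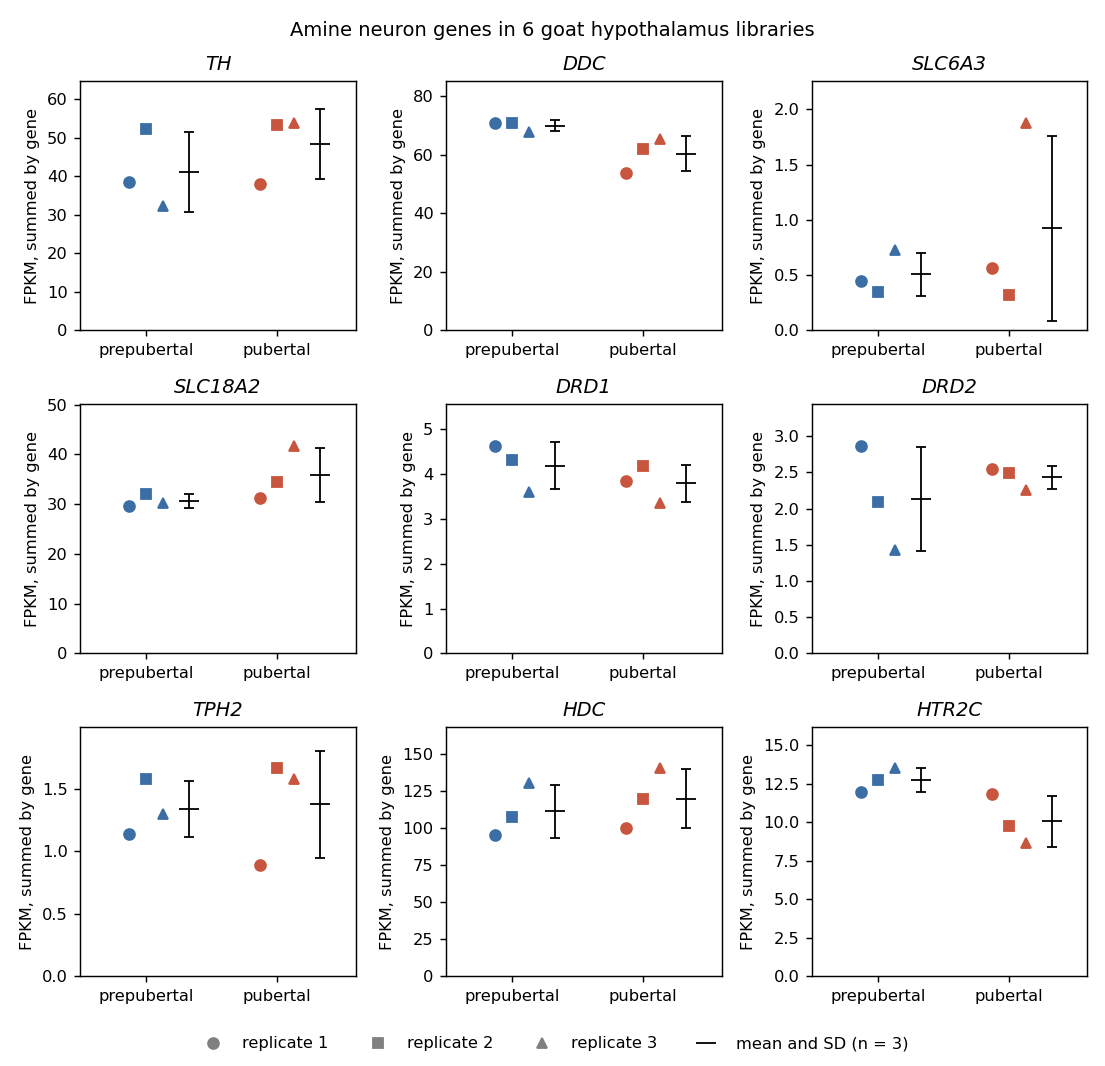
The FPKM of each gene in the 6 libraries, summed over its transcripts, with the mean and SD of the 3 libraries of each stage. The stages are apart in DDC and HTR2C, where pubertal libraries are the lower ones, and overlap in the other 7 genes.

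The receptor genes stand for cells that receive the amines. HTR2C, a serotonin receptor of hypothalamic neurons that also is abundant in choroid plexus, measured 11.9, 9.74 and 8.63 FPKM in pubertal goats 1, 2 and 3. In prepubertal goats 1, 2 and 3 it measured 12.0, 12.8 and 13.5 FPKM. The stages did not overlap, but pubertal goat 1, at 11.87 FPKM, lay just under prepubertal goat 1, at 11.96 FPKM. The mean was lower by 20.9% in pubertal goats, at 10.1 ± 1.65 FPKM where the prepubertal mean was 12.8 ± 0.770 FPKM (SD, n = 3 each). For HTR2C limma gave a log2 fold change of -0.32 (standard error 0.13, unadjusted p = 0.0355, adjusted p = 0.938), and the exact permutation p was 0.1. Leaving out 1 library at a time gave log2 fold changes from -0.43 to -0.22, and the unadjusted p was 0.117 without pubertal goat 3 and 0.00491 without pubertal goat 1. In pubertal goat 3, where HTR2C was lowest, 6 of the 8 choroid plexus markers were at their highest, with TTR alone at 309 FPKM, while OTX2 was at its lowest and PRLR was not at its highest. Their part in the level of HTR2C was not tested.

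General neuron markers lay in the same direction as DDC and HTR2C. All 8 neuron markers had a log2 fold change below 0, with a median of -0.18, and 0 of them had an unadjusted p under 0.05. Their summed level measured 1430, 1257 and 1158 FPKM in pubertal goats 1, 2 and 3, against 1457, 1355 and 1431 FPKM in prepubertal goats 1, 2 and 3. With each library centred on these markers, an alternative added after seeing the data that shifted the median of all genes by 0.16, the log2 fold change was -0.16 for HTR2C (unadjusted p = 0.195 from limma) and -0.05 for DDC (unadjusted p = 0.689). That of SLC18A2 was then 0.37 (unadjusted p = 0.0454, adjusted p = 0.479), and that of DRD1 went from -0.11 to 0.05. Centring takes 1 value from each library, so it moved the log2 fold change of every gene by the same amount, whatever the gene. After it, no gene of the set passed the adjusted threshold. The part of neuron content in the levels of HTR2C and DDC was not tested.

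DRD1 encodes the dopamine receptor that raises cyclic AMP. Its summed level measured 3.86, 4.18 and 3.36 FPKM in pubertal goats 1, 2 and 3, against 4.64, 4.31 and 3.61 FPKM in prepubertal goats 1, 2 and 3, and the stages overlapped. In log2 terms the difference was -0.11 (standard error 0.13, adjusted p = 0.966 from limma). The gene had a noncoding transcript, XR_310296.2 of 3286 nt, and a coding transcript, XM_005685051.2 of 2719 nt, and these lay in opposite directions while their sums overlapped.

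The coding DRD1 transcript measured 0.745, 1.55 and 1.42 FPKM in pubertal goats 1, 2 and 3, against 0.452, 0.000438 and 0.000633 FPKM in prepubertal goats 1, 2 and 3. It held 19.3%, 37.1% and 42.4% of the gene's FPKM in the pubertal libraries. In the prepubertal libraries the shares were 9.74%, 0.0101% and 0.0175%. Neither measure overlapped between the stages, and prepubertal goat 1 stood apart from the other prepubertal libraries. The shares are computed from the levels of both transcripts and are not a separate result. How many of all transcripts did not overlap was not counted here, and over all genes tested it was 9.75%. In limma across 23821 transcripts, the log2 fold change was 0.96 (standard error 0.23, unadjusted p = 0.00354, adjusted p = 0.825).

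The noncoding DRD1 transcript measured 3.11, 2.63 and 1.93 FPKM in pubertal goats 1, 2 and 3, against 4.19, 4.31 and 3.61 FPKM in prepubertal goats 1, 2 and 3, again with no overlap. Its log2 fold change was -0.51 (standard error 0.17, unadjusted p = 0.0212, adjusted p = 0.970 from limma). Of the 13 transcripts of the 9 genes, 3 had an unadjusted p under 0.05, both of DRD1 and that of HTR2C, against 4.87% of all transcripts tested. Both DRD1 transcripts share one gene, and Cufflinks assigns fragments that fit both of them by an estimate, so their levels are not independent. With 1 library left out at a time, an alternative chosen after seeing the data, the log2 fold change ran from 0.86 to 1.14 for the coding and from -0.62 to -0.38 for the noncoding transcript.

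**Figure D4:**
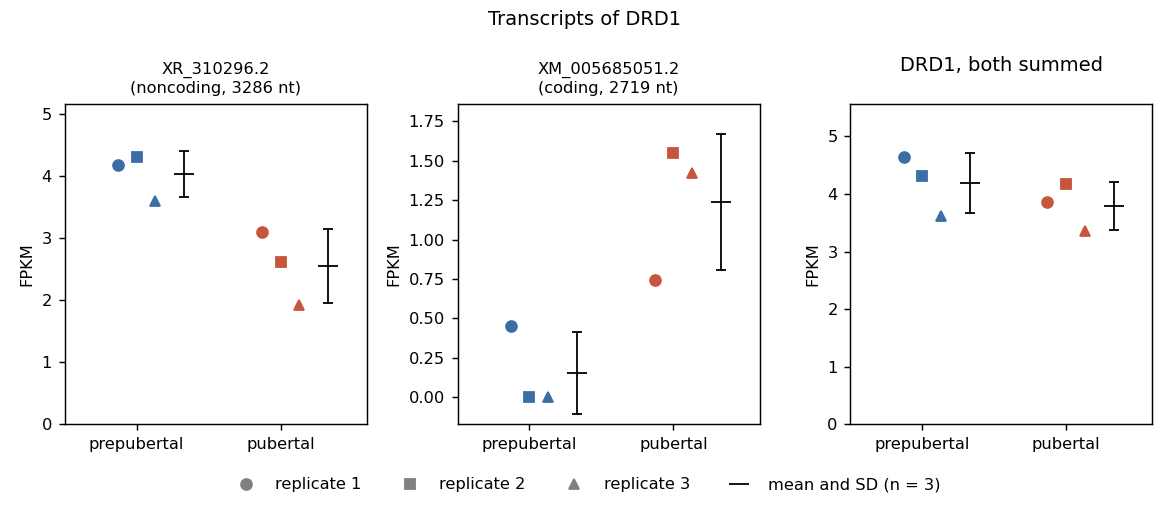
The FPKM of both DRD1 transcripts and of their sum in the 6 libraries, with the mean and SD of the 3 libraries of each stage. The coding transcript is higher and the noncoding transcript lower in every pubertal library than in any prepubertal library, and the sums overlap.

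DRD2 encodes the receptor that lowers cyclic AMP and carries the dopamine signal to the prolactin cells of the pituitary. It measured 2.55, 2.49 and 2.25 FPKM in pubertal goats 1, 2 and 3, against 2.87, 2.095 and 1.43 FPKM in prepubertal goats 1, 2 and 3. The prepubertal goats spread on both sides of the pubertal ones. The log2 fold change stood at 0.16 (standard error 0.17, adjusted p = 0.964 from limma), and it was -0.01 without prepubertal goat 3. Anterior pituitary markers did not overlap between the stages in their summed level, and their part in the level of DRD2 was not tested.

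HDC, which makes histamine, measured 99.99, 119 and 140 FPKM in pubertal goats 1, 2 and 3, against 95.5, 108 and 131 FPKM in prepubertal goats 1, 2 and 3. The stages overlapped over nearly their whole range, with means of 120 ± 20.1 and 111 ± 17.8 FPKM (SD, n = 3 each). As a log2 fold change the difference was 0.10 with a 95% interval from -0.25 to 0.46 (adjusted p = 0.969 from limma), and it was -0.01 without pubertal goat 3. Mast cells also express HDC. Of the 4 mast cell markers in the table, CPA3 and MS4A2 reached at most 0.189 and 0.0679 FPKM in any library, KIT, which neurons express as well, was between 9.48 and 12.9 FPKM, and HPGDS averaged 0.603 and 0.136 FPKM in pubertal and prepubertal goats, with no overlap. Their sum was 10.4 to 12.0 FPKM at the pubertal and 11.2 to 13.2 FPKM at the prepubertal stage, and the part of mast cells in the level of HDC was not tested.

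TPH2, the neuronal tryptophan hydroxylase, measured 0.886, 1.66 and 1.58 FPKM in pubertal goats 1, 2 and 3, against 1.14, 1.58 and 1.30 FPKM in prepubertal goats 1, 2 and 3. Pubertal goats were both the lowest and the highest. The log2 fold change was 0.01 with a 95% interval from -0.36 to 0.38 (adjusted p = 0.999 from limma), and its sign depended on the scaling, with -0.08 after quantile normalization.

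Whether these genes varied with TH among the goats was measured over the 6 libraries, as 8 relations on log2(FPKM + 1). Each relation uses the TH level from its single model of 287 nt and shares its limit. For SLC18A2 Pearson r was 0.725 (exact permutation p = 0.0583, adjusted p = 0.356) and Spearman rho 0.829 (exact permutation p = 0.0583, adjusted p = 0.411). For TPH2 r was 0.741 (exact permutation p = 0.0889, adjusted p = 0.356) and rho 0.657 (exact permutation p = 0.175, adjusted p = 0.467). For HTR2C r was -0.697 (exact permutation p = 0.158, adjusted p = 0.422) and rho -0.771 (exact permutation p = 0.103, adjusted p = 0.411). None of the 8 relations had an adjusted p under 0.05, and the absolute r of the other 5 genes was between 0.0234 and 0.334. Without pubertal goat 3 and prepubertal goat 3, the libraries farthest from the median of TH, r was 0.839 for SLC18A2, 0.957 for TPH2 and -0.361 for HTR2C over 4 libraries. In the same 4 libraries r was 0.891 for HDC, -0.912 for SLC6A3 and -0.719 for DRD2, so that these relations with TH rested on which libraries were included. Within the stages, with each stage mean subtracted, r was 0.807 for TPH2, 0.742 for DDC (exact permutation p = 0.0556, the lowest of the 8, adjusted p = 0.444), 0.649 for SLC18A2 and -0.637 for HTR2C. The value for HTR2C turned to 0.391 and that for DDC went to 0.0273 without pubertal goat 1 and prepubertal goat 3, which here lay farthest from the median.

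Across 14080 genes with a mean of at least 1 FPKM, the genes most like TH over the 6 libraries were RCOR1, CLPTM1L and AP4B1, with Pearson r of 0.986, 0.986 and 0.984, and 19 genes had an r above 0.95. For TPH2 they were ODF3B, PDGFB and GAL3ST4, with r of 0.991, 0.979 and 0.977, and 29 genes had an r above 0.95. The values for TH again rest on its model of 287 nt. All these r values are descriptions over libraries that the genes share. They are the highest values picked from many genes over 6 libraries, and how many unrelated genes would reach them was not tested.

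The other genes of the amine systems were taken from lists and are given by counts, with the most abundant members. None of them had an adjusted p under 0.05. The transcription factors of dopamine neurons held 11 tested genes, 8 with a log2 fold change above 0, a median of 0.26 and 1 with an unadjusted p under 0.05. This was NR4A2, a nuclear receptor that drives TH in midbrain dopamine neurons, with 2.41, 2.36 and 3.30 FPKM in pubertal goats 1, 2 and 3, against 1.81, 1.18 and 2.11 FPKM in prepubertal goats 1, 2 and 3. Its stages did not overlap, and its log2 fold change was 0.46 (unadjusted p = 0.0265, adjusted p = 0.883 from limma). The most abundant factors of the list, DLX1 and PAX6, had log2 fold changes of -0.17 and -0.06. Of the 7 enzymes that make and recycle tetrahydrobiopterin, the cofactor of both hydroxylases, 6 had a log2 fold change below 0, with a median of -0.04, and 0 had an unadjusted p under 0.05. QDPR was at 212 ± 26.5 and 217 ± 9.88 FPKM in pubertal and prepubertal goats, and PCBD1 at 181 ± 21.6 and 215 ± 19.1 FPKM (SD, n = 3 each), with no overlap for PCBD1.

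Genes of noradrenaline neurons and of the serotonin list, which leaves out TPH2, had lower means over the 6 libraries than SLC6A3, at 0.716 FPKM. DBH, the enzyme that makes noradrenaline from dopamine, was at 0.193 ± 0.127 and 0.224 ± 0.0982 FPKM in pubertal and prepubertal goats (SD, n = 3 each), and PNMT and SLC6A2 were under the minimum of 0.1 FPKM. TPH1 was at 0.555 and 0.610 FPKM, and SLC6A4, the serotonin transporter, at 0.325 and 0.313 FPKM on average in pubertal and prepubertal goats. FEV, a transcription factor of serotonin neurons, was listed at 0 in 5 of 6 libraries and at 0.806 FPKM in prepubertal goat 1. These 3 serotonin genes had unadjusted p of 0.652, 0.977 and 0.237 in limma.

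Of the 12 other serotonin receptors tested, 8 had a log2 fold change below 0, with a median of -0.07 and 0 with an unadjusted p under 0.05. HTR2A, a relative of HTR2C that signals through the same G protein, was at 14.6 ± 0.434 and 16.7 ± 2.45 FPKM in pubertal and prepubertal goats, and HTR7 at 7.59 ± 0.829 and 8.67 ± 1.17 FPKM (SD, n = 3 each). The other dopamine receptors were DRD5, at 6.22 and 6.91 FPKM in pubertal and prepubertal goats, and DRD3, at 0.170 and 0.0701 FPKM. The histamine autoreceptor HRH3 was at 11.8 ± 2.81 and 10.3 ± 1.04 FPKM and the histamine methyltransferase HNMT at 14.3 ± 1.68 and 13.9 ± 1.29 FPKM (SD, n = 3 each), and the 3 tested genes of this list had a median log2 fold change of 0.13. Of the 3 tested breakdown enzymes, ALDH2 and AKR1B1 had log2 fold changes of 0.20 and -0.06. Of the 3 other carriers, SLC29A4 and SLC22A3 had -0.03 and 0.18.

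The most abundant adrenergic receptors, ADRA2A and ADRA1A, had log2 fold changes of 0.05 and -0.27. In the list of prolactin signalling to dopamine neurons, SOCS3, a feedback inhibitor of cytokine receptors, measured 1.32, 1.92 and 1.87 FPKM in pubertal goats 1, 2 and 3, against 0.952, 0.806 and 0.827 FPKM in prepubertal goats 1, 2 and 3. Its log2 fold change was 0.53 (unadjusted p = 0.00339, adjusted p = 0.733 from limma), while PRLR and CISH had 0.02 and 0.20, and STAT5B was listed at 0 in all 6 libraries. The summed levels of the leptomeningeal and of the pituitary markers given above were also higher in every pubertal library, though single markers of both lists overlapped. The part of these tissues in the levels of NR4A2 and SOCS3 was not tested.

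Genes downstream of the dopamine receptors had a median log2 fold change of -0.02 over 8 tested genes, with 0 at an unadjusted p under 0.05. CALY was at 29.4 ± 6.65 and 32.3 ± 2.14 FPKM in pubertal and prepubertal goats and PPP1R1B at 19.1 ± 0.904 and 15.6 ± 3.69 FPKM (SD, n = 3 each). Striatal neurons are rich in DRD1 and DRD2. Their 7 markers summed to between 148 and 203 FPKM in pubertal and between 165 and 218 FPKM in prepubertal goats, mostly from TAC1 and PENK, which hypothalamic neurons express as well, and 0 of them had an unadjusted p under 0.05. ADORA2A was listed at 0 in all prepubertal libraries and in pubertal goat 3. The part of striatal tissue in the DRD1 transcripts was not tested.

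**Figure D5:**
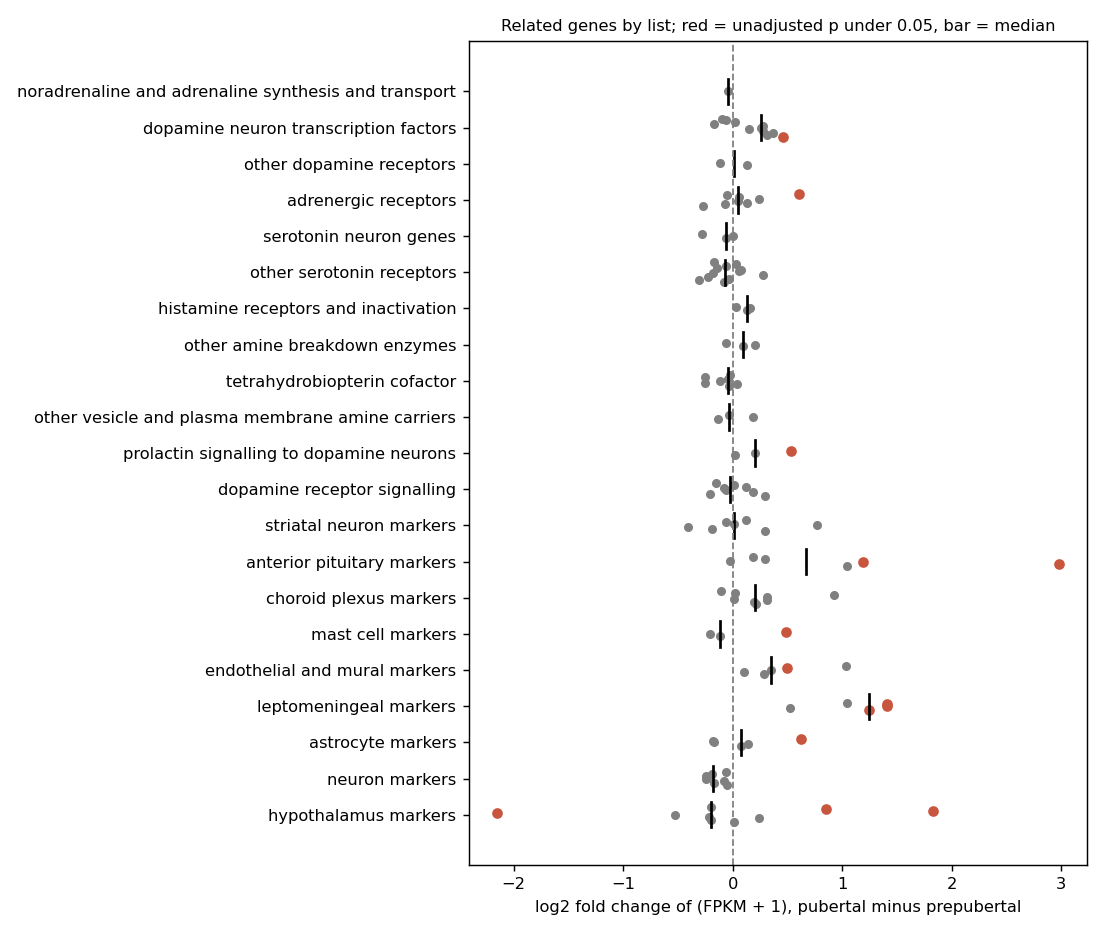
The log2 fold change of (FPKM + 1), pubertal minus prepubertal, of each tested gene of the related lists and the cell type marker lists, with the median of each list as a bar and genes with an unadjusted p under 0.05 in red. The dopamine neuron transcription factors have a median of 0.26 and the noradrenaline list one of -0.04, and the leptomeningeal markers have the highest median, 1.24.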

How the data were processed

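Hypothalamus RNA was measured in 3 pubertal and 3 prepubertal goats. The authors used TopHat for the alignment of paired-end reads and both Scripture and Cufflinks for assembly, and they deposited FPKM per transcript and library. Per the labels, Cufflinks and Cuffdiff were version 2.1.1. The genome build is not given in the sources used here, so no positions are given. The deposited comparison table also holds group FPKM, fold changes, p-values and q-values, which were not used. From it came the gene and the length of each transcript (deposited, in nt, another unit than FPKM). The number of per-sample columns that matched no sample was 0.

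FPKM were summed by gene. Symbols came from a RefSeq table of assembly ARS1.2, to which 19083 of 20225 genes (94.4%) matched. Genes with a mean of at least 0.1 FPKM entered limma 3.58.1 in R 4.3.3 (two-sided, lmFit followed by eBayes with its trend option) as log2(FPKM + 1), a scale that understates the change of low genes. Benjamini-Hochberg adjustment ran over all genes. Each goat gave 1 library. limma was also run on simulated data in which each gene was drawn independently, so differences shared by many genes of a library were not part of it. The outcome is not reported here. Exact tests ran in scipy 1.17.1 under Python 3.11.15, tables in pandas 2.3.3 with numpy 2.4.6, and plots in matplotlib 3.10.9.

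The genes of the set and the lists were chosen with earlier results of these data known. All genes of the set were named, and from each of 21 lists (122 of 136 genes in the table) the most abundant pair and those with an unadjusted p under 0.05, with the 3 genes most like TH and TPH2. A few results under these rules, among them the genes most like HDC, are not reported here. The other marker lists are in the closing section. A single transcript of 150 nt held between 21.4% and 52.7% of the summed FPKM. Alternatives were a pseudocount of 0.1, no minimum or a minimum of 1 FPKM, quantile normalization, median centring, no trend, the replicate number as a block, the most abundant transcript alone, and each library left out. Centring on neuron markers and the DRD1 transcript alternatives were added after seeing the data. The study compared the stages with Cuffdiff, which needs reads, so limma stood in. Protein and promoter sequences were not used here.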

Additional observations from a re-analysis of the deposited data

How the results depend on the processing

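In all 134 fits of the 9 genes under the alternatives, no adjusted p was under 0.05. The direction was kept in 125 and turned in 9. TH, DDC, SLC18A2 and HTR2C kept theirs in every fit. TPH2 went from 0.01 to -0.078 with quantile normalization, -0.0018 with median centring, and between -0.080 and 0.17 with 1 library left out. The same ranges were -0.060 to 0.50 for SLC6A3, -0.015 to 0.32 for DRD2 and -0.014 to 0.23 for HDC. DRD1 was 0.048 when centred on the neuron markers and -0.51 with its most abundant transcript alone. The r of TH with SLC6A3 was -0.0098 within stages and that with DRD1 -0.0066 on FPKM, and 0 relations passed in any setting. The coding DRD1 transcript had a log2 fold change of 2.86 with a pseudocount of 0.1.

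At an unadjusted p under 0.05 there were 2 of the 9 genes with no minimum, with median centring and with the most abundant transcript, 0 with the replicate block, and between 0 (without pubertal replicate 2, prepubertal replicate 1 or prepubertal replicate 3) and 2 (without pubertal replicate 1) with 1 library left out. The replicate numbers pair no goats by design, and the deviations of same-numbered libraries from their stage means had correlations of -0.0246, -0.101 and 0.0752. Over all genes, 846 of 16397 had an unadjusted p under 0.05 in the main fit. The count was 936 with no minimum, 835 with median centring, 812 with the most abundant transcript and 847 with the replicate block. It was 1606 when centred on the neuron markers. With 1 library left out it ran from 502 (without prepubertal replicate 1) to 2223 (without pubertal replicate 1), with 1139 without pubertal replicate 2 and 704 without prepubertal replicate 3. At an adjusted p under 0.05 there was 1 gene with the replicate block, 1 when centred on the neuron markers, and between 0 and 4 (without pubertal replicate 2). Stages did not overlap for 1598 genes, for 3276 when centred on the neuron markers, and for between 2470 and 5399 with 1 library left out, where fewer libraries overlap less often. Centring on the neuron markers moved the log2 fold change of every gene by 0.16, as given above. Apart from these points, the causes were not tested.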

Other observations

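The marker lists of other cells and tissues in the same libraries are given as values. In the leptomeningeal list, 3 of 5 genes had an unadjusted p under 0.05 from limma, DCN with a log2 fold change of 1.24, COL1A2 with 1.41 and COL1A1 with 1.41, and all 5 were above 0. Of the 6 anterior pituitary genes in the table, CGA had 2.98 and TSHB 1.19. CGA measured 50.1, 62.5 and 39.4 FPKM in pubertal goats 1, 2 and 3, against 2.24, 18.0 and 3.32 FPKM in prepubertal goats 1, 2 and 3. Of the 8 choroid plexus genes 0 had an unadjusted p under 0.05. TTR was at 309 FPKM in pubertal goat 3 and at 1.14 FPKM in pubertal goat 2, and its log2 fold change was 0.21, with 0.02 for PRLR.

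All 5 tested endothelial and mural genes were above 0, with RGS5 at 0.50 (unadjusted p = 0.0175 from limma) and ACTA2 at 1.03. Astrocyte markers had a median log2 fold change of 0.07. GFAP and SLC1A3 had 0.07 and -0.17, and ALDH1L1 had 0.62 (unadjusted p = 0.0103). The neuron markers SNAP25 and STMN2 had -0.05 and -0.23. Of the 3 mast cell genes tested, KIT had -0.21 and HPGDS 0.49 (unadjusted p = 0.00548). Among 9 tested hypothalamus markers, GNRH1 had 0.85, POMC 1.83, AGRP -2.15 and PMCH -0.53. None of these genes had an adjusted p under 0.05.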
